A study of Mus musculus with 14 samples.

Results

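Socs1, Socs2, Socs3, Cish, Pim1 and Pim2 were followed through the bone marrow of mice with and without breast tumours. These 6 genes were chosen by name, with earlier results of these data in view, such as lower Socs1 in bulk mesenchymal cells. No threshold was used. They are 6 of 50600 genes in the bulk table, and each was present in all of the tables. Because the choice drew on these comparisons, the adjusted p-values below place the genes among all genes and are not independent support.

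The series holds 14 mouse bone marrow samples from a study of how a localized breast tumour alters marrow cells. Mesenchymal stem cells (MSC) were measured in bulk in 4 tumour-free samples and 4 tumour-bearing samples titled Py230. Marrow stromal cells were measured cell by cell in 1 WT and 1 PyMT library. Hematopoietic stem and progenitor cells (HSPC) were measured cell by cell in 2 WT and 2 PyMT mice. PyMT names the polyoma middle T oncogene, which in the widely used MMTV-PyMT strain is driven in mammary epithelium. The labels give only the word PyMT, with no promoter, strain, age, tumour stage or sort gate. All 4 HSPC titles carry a PyMT prefix, including those of the WT mice, so genotype was taken from the genotype label.

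SOCS proteins are the negative feedback arm of cytokine signalling. A cytokine receptor activates JAK kinases, these phosphorylate STAT transcription factors, and STATs switch on SOCS genes whose products then block the receptor or the kinase. Pim kinases are serine/threonine kinases that STATs also induce and that favour survival and growth of blood cells.

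SOCS1 and SOCS3 inhibit JAK kinases directly, SOCS1 mainly after interferons and SOCS3 mainly at receptors that use gp130 and at the G-CSF receptor. CISH and SOCS2 act mainly on receptors that signal through STAT5, such as those for growth hormone and erythropoietin. PIM1 and PIM2 are constitutively active once made, so their amount sets their activity.

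In the GENCODE vM21 annotation of GRCm38 (mm10), all 6 are protein-coding genes. Socs1 lies on chromosome 16 at 10782240 to 10785536, Socs2 on chromosome 10 at 95385362 to 95417180, and Socs3 on chromosome 11 at 117966079 to 117970047. Those 3 genes are on the minus strand. On the plus strand, Cish lies on chromosome 9 at 107296026 to 107302784, Pim1 on chromosome 17 at 29490753 to 29496112, and Pim2 on chromosome X at 7878262 to 7883432.

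Start-site sequences from RefSeq (GRCm38.p6, from 250 bases before to 50 after each start) were searched on both strands for 2 motifs. TTCNNNGAA is the form STAT factors bind, and GAAANNGAAA is the form bound by interferon regulatory factors. Of 32851 such windows, 8.30% held the first and 3.44% the second. The members with a match are shown 5′ to 3′ on the gene's strand, with the matched letters in capitals, because these are the regulators that the genes are known for.
Socs1: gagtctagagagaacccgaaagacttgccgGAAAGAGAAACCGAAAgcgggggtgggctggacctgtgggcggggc
Socs3: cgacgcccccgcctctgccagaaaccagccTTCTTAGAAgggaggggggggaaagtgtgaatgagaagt
Cish: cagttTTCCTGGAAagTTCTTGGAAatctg

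The Socs1 stretch (chr16:10785574-10785649, minus strand) holds 2 overlapping matches to the interferon-type motif, which begin 83 and 77 bases before the start. The Socs3 stretch (chr11:117969482-117969550, minus strand) holds 1 STAT-type match, beginning 154 bases before the start. The Cish stretch (chr9:107296654-107296683, plus strand) holds 2 STAT-type matches, which begin at the start site and 11 bases after it. These letters are not in the windows of Pim1, which has 2 starts, or of Pim2. Positions count from the RefSeq start. The Socs3 and Cish stretches lie inside the GENCODE spans given above, whose outer ends differ from these RefSeq starts. A match is a description of the sequence, not evidence of binding.

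Depth bears on every value. Bulk libraries held 4301375 to 9811251 reads. HSPC libraries held 2210 to 5608 cells and 16365550 to 28570481 unique molecular identifiers (UMIs, each standing for 1 captured RNA molecule). The median cell had 6643.5 and 6767.5 UMIs in the WT mice, 7149 in PyMT mouse 1 and 4257 in PyMT mouse 2, so the last library stands apart in depth. Pairs of single-cell libraries shared 0 to 23 cell barcodes. The labels do not tie the bulk samples to different mice, so the spread behind their p-values may be technical.

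In bulk MSC, Socs1, Socs3 and Pim1 were lower in the Py230 group, and Socs2, Cish and Pim2 did not pass the test. Per kilobase of exon, where genes can be compared, Socs3 was the most abundant member in tumour-free MSC at 996 normalised CPM (counts per 1000000 counts of the library, after TMM scaling) per kilobase. Pim1 followed at 121, Socs1 at 35.6, Cish at 14.0, Socs2 at 8.59 and Pim2 at 1.48.

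Socs1 stood at 132, 97.1, 99.2 and 85.6 normalised CPM in the tumour-free libraries and at 36.0, 49.9, 64.1 and 41.2 in the Py230 libraries. Every Py230 library lay below every tumour-free one. The means were 104 ± 20.1 and 47.8 ± 12.3 (SD, n = 4 each). The fitted difference was -1.10 on the log2 scale (SE 0.18), or 2.14-fold lower (edgeR quasi-likelihood test, adjusted p = 0.00389).

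Socs3 stood at 3320, 3204, 2530 and 2464 normalised CPM without tumour and at 1447, 1730, 1977 and 1710 with it. Again the groups did not overlap. It was 1.68-fold lower (log2 difference -0.75, SE 0.13, edgeR adjusted p = 0.00516).

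Pim1 stood at 400, 444, 423 and 361 normalised CPM in tumour-free MSC and at 242, 325, 286 and 268 in Py230 MSC, also without overlap. It was 1.45-fold lower (log2 difference -0.54, SE 0.11, edgeR adjusted p = 0.0128). This call was the least secure of the 3: the adjusted p was 0.0529, 0.0700 and 0.0538 without tumour-free library 1, 2 or 3.

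Cish ranged from 70.4 to 105 normalised CPM in tumour-free MSC and from 56.3 to 83.7 in Py230 MSC, and the groups overlapped. Its log2 difference was -0.32 (SE 0.14, edgeR adjusted p = 0.273). Socs2 ranged from 59.1 to 113 and from 86.9 to 167, with a log2 difference of 0.60 (SE 0.26, edgeR adjusted p = 0.302). Pim2 was near the limit of measurement, at 2.76 to 5.81 and 4.95 to 6.69 normalised CPM (log2 difference 0.38, edgeR adjusted p = 0.643).

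**Figure D1:**
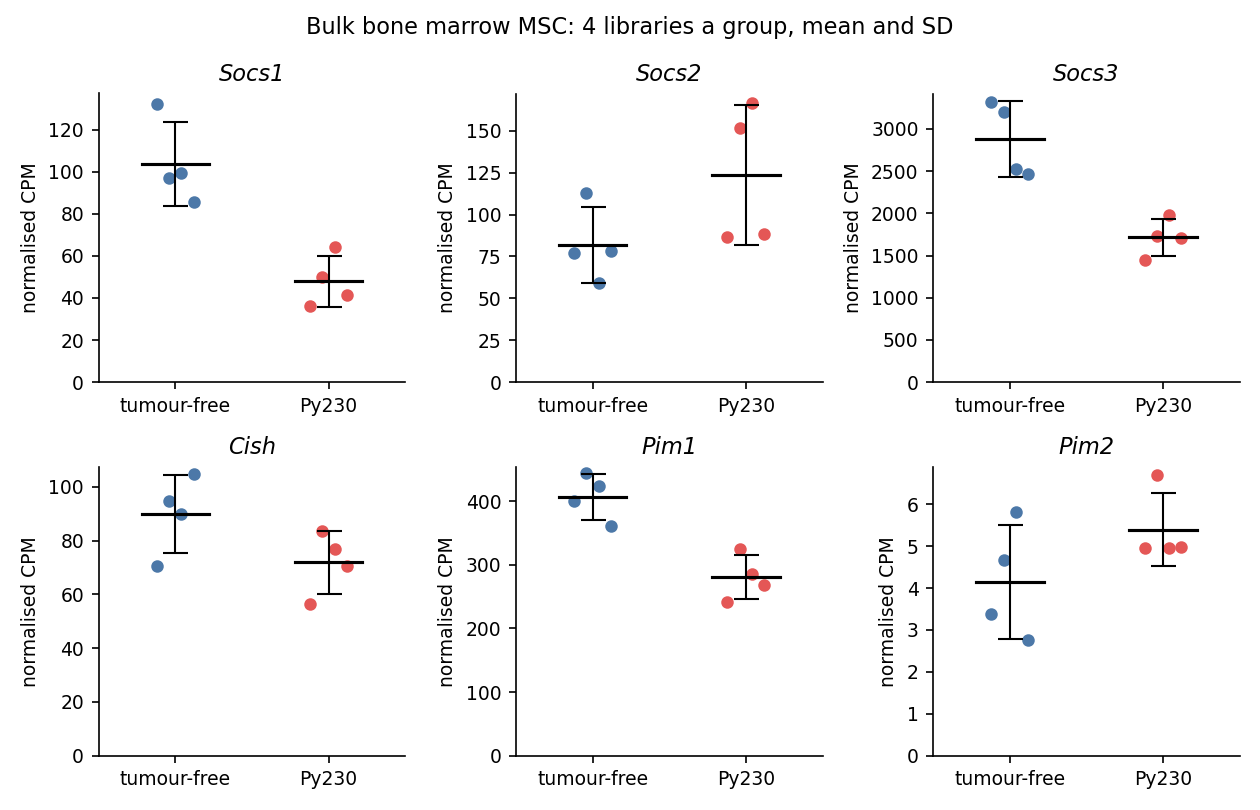
Normalised CPM (y axis, from 0) of the 6 genes in bulk MSC. Points are the 4 tumour-free and 4 Py230 libraries, and bars are the mean and SD. Socs1, Socs3 and Pim1 show no overlap between groups, while Socs2, Cish and Pim2 overlap.

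Of all 16317 genes tested in bulk, 1.99% were called higher and 2.74% lower at an adjusted p under 0.05. Ranges lay apart with Py230 higher in 5.36% of genes and with Py230 lower in 5.61%. Since the choice of genes used this contrast, nothing is read from 3 of 6 against these shares.

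Markers of LepR+ mesenchymal cells were lower in the same comparison, but unevenly. The 8 markers of LepR+ mesenchymal cells summed to between 29904 and 32068 CPM in tumour-free libraries and between 15894 and 18970 in Py230 libraries. Cxcl12 alone stood at 18564 to 22079 normalised CPM in tumour-free and 8131 to 11854 in Py230 libraries. Adipoq, Lpl, Chrdl1 and Ebf3 were also lower without overlap. Lepr (3109 to 3818 and 2789 to 3139 normalised CPM), Kitl (1473 to 1742 and 1292 to 1500) and Esm1 overlapped. In bulk RNA, fewer cells of a type and less RNA per cell cannot be told apart, and the part of this shift in the 3 lower genes was not tested. Marker sums of some other cell types were higher in Py230 without overlap, and those of the remaining types overlapped. Sinusoidal endothelial markers summed to 35.4 to 52.7 and 58.5 to 115 CPM, monocyte-macrophage markers to 53.5 to 66.5 and 78.8 to 113, and megakaryocyte-erythroid markers to 22.4 to 35.2 and 37.7 to 63.0. Not every gene in these lists rose. Stab2 was 5.52 to 9.15 normalised CPM in tumour-free and 1.05 to 9.05 in Py230 libraries. For Car1 the values were 1.16 to 1.60 and 0 to 1.36. Of 20 immediate-early and dissociation stress genes, 2 rose and 1 fell. Together they summed to 43873 to 43964 CPM in tumour-free and 44428 to 47959 in Py230 libraries, without overlap. The part of this in the 3 lower genes was not tested.

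Around the members, the pathway moved unevenly in bulk MSC. Osmr, the oncostatin M receptor subunit, rose from between 241 and 338 normalised CPM to between 499 and 664 (log2 difference 0.95, edgeR adjusted p = 0.000764), the 1 call among 21 tested JAK-coupled receptors. No JAK kinase (of 4) and no STAT factor (of 6 tested) passed the test.

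Among 18 STAT target genes outside the family, 2 rose and 2 fell. Lrg1, a secreted glycoprotein induced in the acute phase response, rose by 2.58 on the log2 scale (edgeR adjusted p = 0.00112). Serpina3n, an acute-phase protease inhibitor, rose from between 1.89 and 6.18 to between 38.6 and 299 normalised CPM (edgeR adjusted p = 0.0472). Irf1, an interferon-induced transcription factor, fell by 1.29 (edgeR adjusted p = 0.00132), and Cebpd, another transcription factor, fell by 0.52 (edgeR adjusted p = 0.0367).

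Of the remaining family genes, Pim3 fell by 0.57 (edgeR adjusted p = 0.00434) and the other 4 did not pass. Il7, the lymphoid growth factor, fell from between 93.9 and 117 to between 26.3 and 46.8 normalised CPM (edgeR adjusted p = 0.000175). Il15 fell by 0.73 (edgeR adjusted p = 0.0262), so 2 of 9 tested cytokine ligands were lower.

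The single-cell stromal tables resolve the mesenchymal fraction by the authors' 6 deposited clusters, with 1 library per genotype and therefore no test. Intervals below cover counting error only. Cluster 0 was LepR+ mesenchymal-like, with 8 of 8 of those markers over 2-fold above the other cells. Cluster 2 was fibroblast-like and cluster 5 osteolineage-like. Cluster 1 was tendon or cartilage-like, led by Fmod and Chad. Clusters 3 and 4 were endothelial, sinusoidal-like and capillary-like in turn.

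Socs3 in LepR+ cells was 1689 CPM (UMIs of the gene per 1000000 UMIs of the summed cells) in WT (95% Poisson interval 1647 to 1731) and 1670 in PyMT (1645 to 1695), from 977 and 2242 cells. The log2 ratio was -0.02 (-0.06 to 0.03). In cluster 1 it was 496 and 919, and in the fibroblast-like cluster 468 and 905, with log2 ratios of 0.89 (0.78 to 1.002) and 0.95 (0.85 to 1.05).

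Sinusoidal-like cells showed Socs3 at 480 and 810 CPM, and osteolineage-like cells 174 and 315. The PyMT library was thus above the WT library in every cluster but LepR+ cells, and the interval of the ratio lay above 0 in 4 of 6, clusters 1, 2, 3 and 5. Over all genes with at least 20 UMIs, 50.8% to 64.4% had a ratio above 0, depending on the cluster. The interval lay above 0 for 21.4% of genes in cluster 0, 19.2% in cluster 1, 16.9% in cluster 2, 11.7% in cluster 3, 7.66% in cluster 4 and 14.8% in cluster 5. With cells of at least 1500 UMIs thinned to 1500, the Socs3 ratio in cluster 5 went from 0.86 to 0.20 on the log2 scale. That in cluster 4 went from 0.35 to -0.27, where only 19 of 95 WT and 25 of 61 PyMT cells were left.

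Pim1 showed another pattern. It was 338 CPM in WT and 550 in PyMT LepR+ cells (log2 ratio 0.70, 0.61 to 0.79), its highest level in the stroma. LepR+ cells with at least 1500 UMIs, 918 of 977 in WT and 2162 of 2242 in PyMT, were thinned to 1500. Of these, 32.5% and 41.0% held a Pim1 UMI. In the fibroblast-like cluster Pim1 was 44.3 and 72.3 CPM.

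Socs1 in LepR+ cells was 134 and 122 CPM (log2 ratio -0.13, -0.28 to 0.02). It was 46.6 and 85.8 in cluster 1 and 61.9 and 101 in the fibroblast-like cluster. Socs2 was 178 and 258 in the sinusoidal-like cluster, 189 and 178 in the capillary-like one, and 145 and 163 in LepR+ cells. Between the endothelial and LepR+ cells only the sinusoidal-like PyMT interval (213 to 309) lay above that of the same library (156 to 171).

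Cish stood at 33.2 and 40.5 CPM in LepR+ cells (log2 ratio 0.29, -0.01 to 0.59) and at 4.86 and 8.67 in the fibroblast-like cluster. In the capillary-like cluster it was 34.3 and 29.7, from 4 and 3 UMIs, with intervals that span the LepR+ levels. It had 0 and 1 UMIs in the osteolineage-like cells of the 2 libraries. Pim2 was almost absent from stroma, with 4 and 18 UMIs in LepR+ cells and 0 in both libraries for clusters 4 and 5, which allows up to 25.7 and 29.7 CPM in cluster 4 and 3.99 and 4.63 in cluster 5 by a floor of 3 counts.

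**Figure D2:**
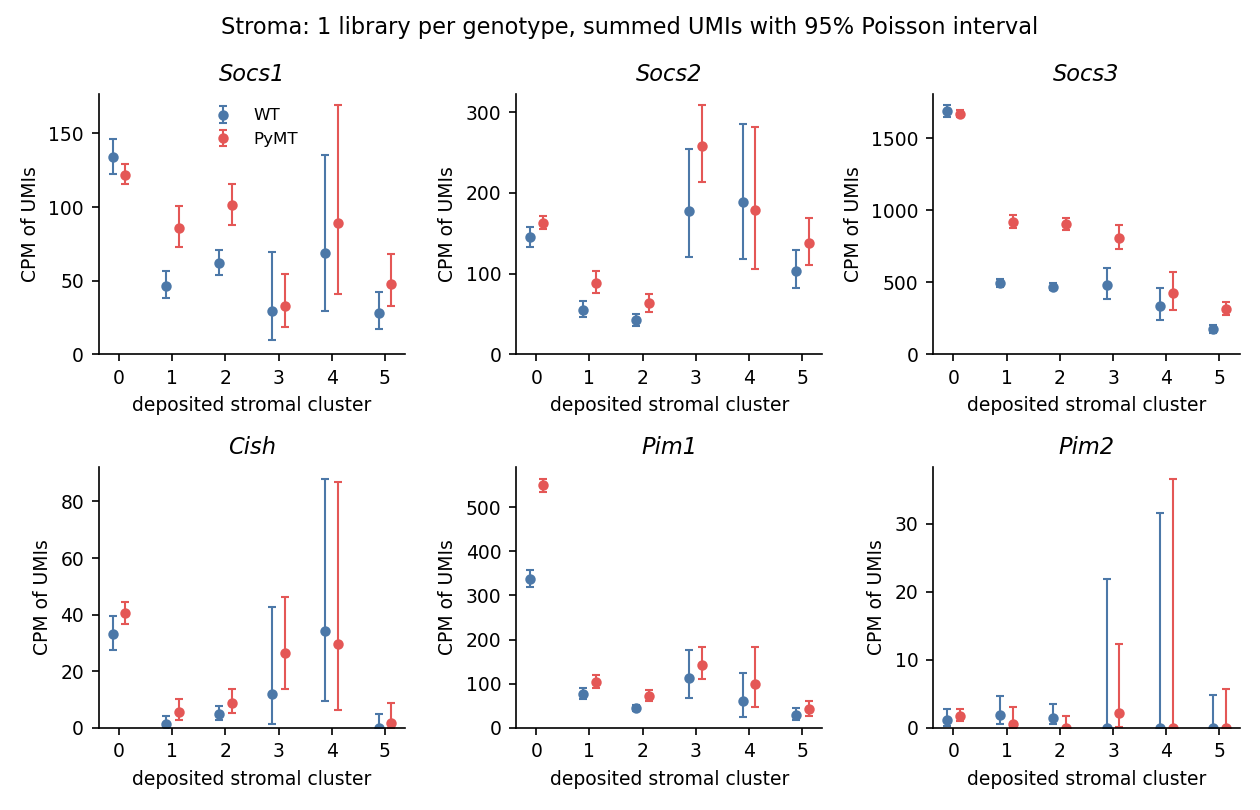
CPM (y axis, from 0) of each gene in the 6 deposited stromal clusters, with 95% Poisson intervals, 1 library per genotype. Socs3 intervals overlap between genotypes in cluster 0, and Socs3 stands at 496 and 919 CPM in cluster 1, while Pim1 is higher in PyMT in cluster 0.

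Stress genes also differed between the libraries. All 20 immediate-early and dissociation stress genes were higher in the PyMT library in clusters 0, 1 and 2, with median log2 ratios of 0.87, 1.06 and 0.92. Over all genes with at least 20 UMIs, the medians were 0.08, 0.16 and 0.08. In LepR+ cells the intervals of the Pim1 and Socs2 ratios lay above 0, and those of the other members included 0. The part of a library-wide stress response in the member ratios was not tested.

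Among STAT targets in LepR+ cells, 14 of 17 measured were higher in the PyMT library, with a median log2 ratio of 0.48. Over all genes in that cluster 58.2% were higher, and 2 of the STAT targets, Fos and Junb, are also among the stress genes above. Serpina3n was 2.97 and 22.9 CPM, and Lrg1 was 12.7 and 43.2. Both genes were also higher in Py230 bulk MSC, in another tumour model.

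Likeness over the 12 stromal cluster-by-library sums was described by Pearson's r of log2(CPM + 1). These sums share 2 libraries, and no p is given. Socs3 was closest to Fosb (r = 0.95), Pik3r1 (0.95) and Fos (0.94). Pim1 was closest to Grem1 (0.96), Fosb (0.96) and Epb41l4b (0.96). Socs1 was closest to Amotl2 (0.97), Socs2 to Smagp (0.98) and Cish to Milr1 (0.97).

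In HSPC, Socs3, Socs1 and Pim1 were higher in PyMT mice. Socs3 was 10.7 and 8.07 CPM in the WT mice and 58.0 and 50.6 in the PyMT mice. It was 6.22-fold higher (log2 difference 2.64, SE 0.16, edgeR adjusted p = 0.000541). Thinning to 3000 UMIs kept only cells with at least that many. These were 3320 of 3422 and 2168 of 2210 WT cells, and 3388 of 3602 and 4141 of 5608 PyMT cells. Of them, 3.77% and 2.68% of WT cells and 17.6% and 12.5% of PyMT cells held a Socs3 UMI. Over all cells, without thinning, the shares were 7.01% and 5.20%, and 29.7% and 19.4%. No cell type known to lack Socs3 was in this table, so the level that free RNA gives was not measured. In the granulocyte-monocyte-like cluster described below, Socs3 was 2.23 CPM in WT mouse 1, 0 in WT mouse 2 (21 cells, which allows up to 10.3 CPM by a floor of 3 counts), and 13.4 and 9.22 in the PyMT mice.

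Socs1 was 7.31 and 8.92 CPM in WT and 16.2 and 18.3 in PyMT. It was 2.33-fold higher (log2 difference 1.22, SE 0.14, edgeR adjusted p = 0.0130). Pim1, the most abundant of the 6 here, was 351 and 337 in WT and 487 and 584 in PyMT. It was 1.69-fold higher (log2 difference 0.76, SE 0.11, edgeR adjusted p = 0.0218).

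Pim2 was 23.1 and 22.5 CPM in WT, 26.4 in PyMT mouse 1 and 49.8 in PyMT mouse 2. Its log2 difference of 0.85 (SE 0.32, edgeR adjusted p = 0.227) rested on 1 mouse: it was 0.35 without PyMT mouse 2 and 1.22 without PyMT mouse 1, where it passed. It also passed with DESeq2 (adjusted p = 0.00547) and after thinning (edgeR adjusted p = 0.0366). Cish was 6.21 and 7.15 against 7.39 and 8.74 (edgeR adjusted p = 0.203). Socs2 was 4.52 and 8.55 against 6.48 and 8.92, and the mice overlapped (edgeR adjusted p = 0.463).

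Of 11759 genes, 0.850% were called higher in PyMT HSPC, and 26.7% had both PyMT mice above both WT mice. The contrast was in view when the genes were chosen, so nothing is read from 3 of 6. HSPC makeup also differed: 8 granulocyte-monocyte progenitor markers summed to 3319 to 7273 CPM in WT and 8201 to 10901 in PyMT. For 8 stem-cell markers the sums were 399 to 481 and 215 to 297. Not every gene in these lists was apart: Ctsg and Fcgr3 of the first and Procr and Fgd5 of the second overlapped between genotypes. The 8 megakaryocyte-erythroid markers summed to 760 to 798 CPM in WT and 266 to 314 in PyMT. Their part in the all-cell differences was not tested, and values within clusters are given below.

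A cell more often showed several of these genes in PyMT mice. Socs3 and Pim1 were each detected in a larger share of cells there, and the share of cells that this alone gives was not measured. Among cells with at least 3000 UMIs, thinned to 3000, a UMI of 2 or more of the 6 was held by 11.02% and 10.98% in WT. In PyMT these shares were 25.2% and 23.4%. In G1 cells of PyMT mouse 1, 24.005% of cells with a Pim1 UMI also had a Socs3 UMI, against 11.1% of cells without one. The corresponding shares were 16.8% and 8.14% in PyMT mouse 2, 5.97% and 1.81% in WT mouse 1, and 3.75% and 2.37% in WT mouse 2. Of the 15 pairs among the 6 genes, 11 had the higher share in cells with the other gene in all 4 mice and 4 did not. The share over pairs of other genes was not measured, so this count is a description. G1 cells mix clusters that differ in these genes, and only 41 of them held a Socs2 UMI in WT mouse 1. In PyMT mouse 2, for example, 11.8% of cells with a Socs2 UMI had a Socs3 UMI, against 14.4% of those without.

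No JAK kinase (of 4) and no STAT factor (of 7) passed. Il4ra, the interleukin-4 receptor chain, rose by 0.77 (edgeR adjusted p = 0.0311), and Epor, the erythropoietin receptor, fell by 0.91 (edgeR adjusted p = 0.04997), out of 23 tested receptors. Epor moved with the lower megakaryocyte-erythroid markers given above, whose part in its fall was not tested. Among 15 STAT targets, Bcl3, a nuclear regulator of NF-kB, rose by 1.06 (edgeR adjusted p = 0.0139). Junb, an AP-1 factor, rose by 1.12 (edgeR adjusted p = 0.0230) and is also the 1 call among 18 stress genes. Together those 18 summed to 6497 to 6691 CPM in WT and 7126 to 9015 in PyMT, without overlap. Their median log2 difference was 0.44, against -0.01 over all genes. The part of this stress shift in the member differences was not tested.

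The difference was present in each deposited cell-cycle phase. Socs3 in G1 was 13.9 and 9.68 CPM in WT and 73.6 and 63.0 in PyMT. In S it was 6.57 and 5.87 against 27.7 and 23.6, and in G2M 4.80 and 5.14 against 31.3 and 29.3. Both PyMT mice lay above both WT mice in all 3 phases.

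The fitted log2 differences for Socs3 were 2.63, 2.10 and 2.71 in G1, S and G2M (edgeR adjusted p = 0.000534, 0.00961 and 3.79e-05). Pim1 differed by 0.75, 0.69 and 0.73 (edgeR adjusted p = 0.0196, 0.0166 and 0.00676). Socs1 differed by 1.21, 1.09 and 1.22, which passed in G1 and G2M (edgeR adjusted p = 0.0109 and 0.0170) but not in S (0.227), where the WT mice gave 13 and 5 UMIs.

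Some phase calls depended on 1 mouse. Pim1 in G1 had an adjusted p of 0.0648 without WT mouse 1 and 0.229 without WT mouse 2, and in S 0.0757 without WT mouse 2. Socs1 had 0.0523 in G1 without WT mouse 1, and 0.0884 and 0.0608 in G2M without PyMT mouse 1 or 2. Across all genes, 1.07%, 0.276% and 1.26% were called higher in G1, S and G2M.

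The genotype difference was not shown to change with phase. In the test of that interaction the Socs3 value was -0.47 for S (SE 0.33, edgeR adjusted p = 0.789) and 0.11 for G2M (SE 0.21, edgeR adjusted p = 0.972). None of the 6 genes passed for either phase. Without adjustment, Socs2 in G2M was the 1 member to pass (-0.98, SE 0.37).

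Phases themselves differed in relative abundance. All 6 genes were lower in S and in G2M than in G1, with each mouse as a block. Over 4 mice, Socs3 averaged 40.0 CPM in G1, 15.95 in S and 17.6 in G2M, and Pim1 averaged 517, 261 and 321. The log2 differences of S from G1 ran from -1.23 for Socs3 to -0.62 for Cish, and those of G2M from -1.45 for Socs2 to -0.48 for Socs1. The calls rest on that block: without it, an adjusted p under 0.05 was lost for Socs1, Socs3 and Pim2 in both phases, for Socs2 and Cish in S and for Pim1 in G2M. After thinning it was lost for Socs2 and Cish in S (edgeR adjusted p = 0.267 and 0.140) and for Socs1 in G2M (0.341). Socs2 in S was also lost without PyMT mouse 1 or 2 (0.294 and 0.0673), and Cish in S without PyMT mouse 1 or WT mouse 2 (0.0943 and 0.0515). In all, 16.9% of 11045 genes were called lower in S and 25.6% in G2M.

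Cells in S and G2M held more UMIs, so counts per cell differed less. Pim1 averaged 2.99 UMIs per cell in G1, 2.44 in S and 3.13 in G2M. Socs1 averaged 0.0846, 0.0656 and 0.0953. Socs3 was lower per cell as well, at 0.231, 0.149 and 0.166. The median cell of WT mouse 1 had 5629 UMIs in G1 and 10470 in G2M.

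**Figure D3:**
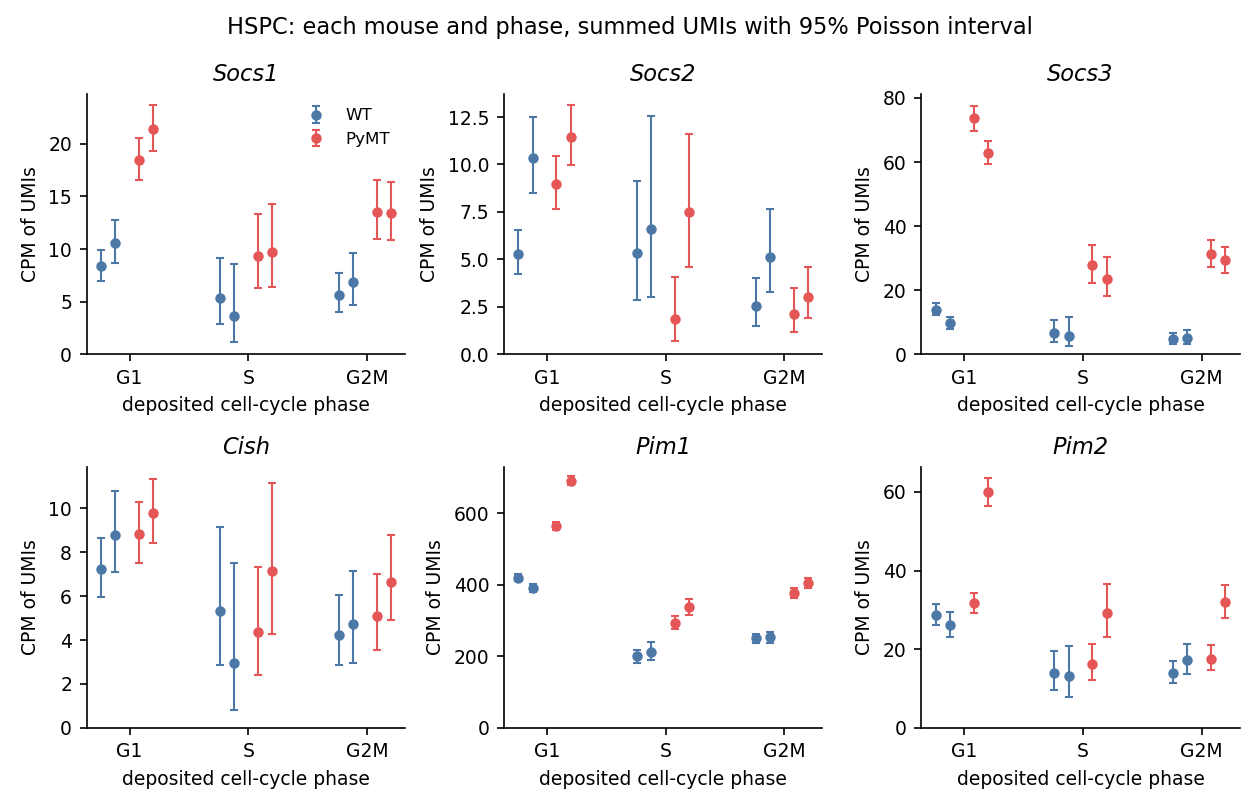
CPM (y axis, from 0) of each gene in G1, S and G2M for each of the 2 WT and 2 PyMT mice, with 95% Poisson intervals. Socs3 is higher in both PyMT mice in every phase, and all genes are highest in G1 on average.

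HSPC were grouped into 14 clusters from their expression, since no deposited cell types were used. All 6 members were among the 2000 variable genes that made the clusters. Cluster 3 was stem-like (8 of 8 markers), cluster 5 lymphoid-primed-like (6 of 6), cluster 9 granulocyte-monocyte-like (8 of 8), and clusters 4 and 10 megakaryocyte-erythroid-like (7 of 8 each). Cluster 4 also had 5 of 5 basophil-mast markers over 2-fold above the other cells. The rest keep their numbers. Jchain, Socs3 and Pim2 led cluster 2, which held 425 and 1166 PyMT cells and 32 and 4 WT cells. That is a description, since these genes helped to define it. Cluster 7 held 593 and 359 WT cells and 25 and 33 PyMT cells, so many G1 cells of the genotypes lay in different clusters.

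Differences within a cluster were fitted in the 9 clusters with at least 50 cells in every mouse, which leaves out clusters 2, 7, 9, 12 and 13. Socs3 was called higher in PyMT in 8 of 9, with log2 differences from 1.72 in cluster 4 to 3.39 in cluster 11. The exception was cluster 10 (2.09, edgeR adjusted p = 0.0844), whose mice gave 6, 4, 15 and 14 UMIs. Pim1 was called in the same number, 8 of 9, again all but cluster 10 (0.43, edgeR adjusted p = 0.163).

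Socs1 was called in 4 of 8 clusters, Pim2 in 3 of 9, and Cish and Socs2 each in 1 of 5. The denominators are the clusters where a gene passed the filter on low counts. PyMT mice alone can meet that filter, so the counts of clusters are a description. WT and PyMT mice gave 12 and 115 Socs3 UMIs in cluster 11, and 12 and 77 Socs1 UMIs in cluster 8. No member was called lower in any cluster. Genes called higher made up 1.70% of those tested in cluster 0, 0.247% in cluster 1, 0.948% in cluster 3, 0.249% in cluster 4, 0.756% in cluster 5, 0.228% in cluster 6, 0.365% in cluster 8, 0.195% in cluster 10 and 0.428% in cluster 11.

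In the stem-like cluster all 6 genes were higher in PyMT mice. Socs2 was 21.0 and 35.0 CPM in WT and 113 and 97.7 in PyMT (log2 difference 1.95, SE 0.21, edgeR adjusted p = 6.3e-07). Cish was 24.5 and 23.8 in WT and 58.9 and 63.3 in PyMT (1.40, SE 0.22, edgeR adjusted p = 0.000245). Both are STAT5-linked inhibitors and neither passed over all cells.

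Socs3 in stem-like cells was 26.4 and 15.2 in WT and 157 and 91.4 in PyMT (log2 difference 2.55, SE 0.29, edgeR adjusted p = 0.000303). Socs1 was 14.7 and 18.2 against 45.3 and 58.8 (1.75, SE 0.25, edgeR adjusted p = 8.16e-05). Pim2 was 58.7 and 51.2 against 131 and 167 (1.51, SE 0.16, edgeR adjusted p = 6.3e-07). For each, both PyMT mice lay above both WT mice.

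Pim1 was 788 and 638 CPM in WT stem-like cells and 1227 and 1001 in PyMT ones (log2 difference 0.69, SE 0.12, edgeR adjusted p = 0.00132). It did not pass without WT mouse 2 (0.54, adjusted p = 0.313). With the 6 genes kept out of the clustering, the matching cluster was broader, at 2357 cells against 1571. It took in 1558 cells of cluster 3 and 427 of the mostly WT cluster 7. In this broader cluster Socs3 had a log2 difference of 2.85 and an edgeR adjusted p of 0.0562, and the other 5 passed. The part of the added cells in these differences was not tested.

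Stem-like cells were 15.0% and 20.1% of WT cells and 5.33% and 7.49% of PyMT cells. Of 16 tested stress genes, 6 were also higher in this cluster, among them Junb (1.78) and Egr1 (1.38), and their part in the member differences was not tested.

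The stem-like cluster was not shown to differ from the others in its response. In the test of cluster 3 against the other clusters, the largest member value was 1.38 for Socs2 (SE 0.35, edgeR adjusted p = 0.105). Cish gave 0.79 (SE 0.29, edgeR adjusted p = 0.526), and Socs3 gave -0.08 (SE 0.25, edgeR adjusted p = 0.997).

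**Figure D4:**
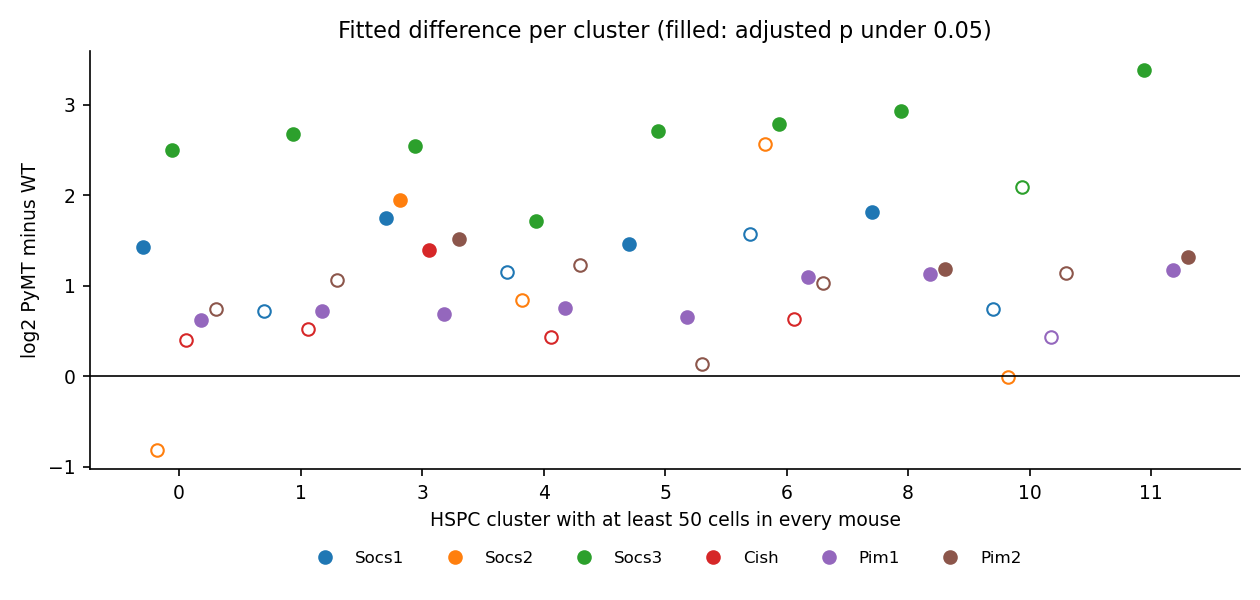
Fitted log2 difference of PyMT from WT (y axis) for each gene in the 9 HSPC clusters with at least 50 cells in every mouse. Filled points have an adjusted p under 0.05. All 6 genes are filled in cluster 3, and Socs3 is filled in every cluster but 10.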

How the data were processed

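Bulk libraries were made with a stranded total RNA kit and single cells with droplet 3′ chemistry, per the labels' protocols. Trim Galore, STAR 2.5.3a and Cell Ranger 6.0.0 with build mm10 are named in the submitters' processing notes. Neither labels nor headers name the read counter, its strand setting, the sort gates, the phase caller or any doublet removal. The deposited tables hold raw counts of reads (bulk) or UMIs (single cells). No doublet caller was run.

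The 6 genes, the gene lists and the tests were chosen with earlier results of these data known. Named genes are the 6 members and, from each pathway list and comparison, at most 4 genes with the smallest p (in stroma, the largest log2 ratio). edgeR 4.0.16 (its quasi-likelihood test with robust dispersion, TMM scaling, filterByExpr and Benjamini-Hochberg adjustment, calls under 0.05) was run on all genes, and p-values were adjusted over all of them. Each SE is the absolute log2 difference divided by the square root of the test's F statistic, so it is an approximate standard error. HSPC counts were summed per mouse, phase or cluster. Phase comparisons kept the mouse as a block, since the same mice gave every phase. HSPC clusters came from scanpy 1.11.5 (2000 variable genes, 30 components, 20 neighbours, Leiden resolution 0.6). In stroma, 2190 WT and 3191 PyMT cells met a minimum of 500 detected genes and a mitochondrial share below 10%. Intervals are exact, at 95%, and cover counting error only. The edgeR script was tested on simulated data. Alternatives were DESeq2 1.42.0, other scaling, no filter, blocks, thinned cells and leaving out each library. Thinning dropped cells that held fewer UMIs than the target. Leaving out cluster 2, clustering without the 6 genes, and the cluster 3 checks were added after seeing the data. No Socs2 start-site sequence was in the table used.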

Additional observations from a re-analysis of the deposited data

Results flagged for a closer look

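Of 12 sets of 4 bulk libraries (6 genes in each of 2 groups), 1 had a library far from the other 3. Pim2 stood at 6.69 normalised CPM in Py230 library 2, while the other Py230 libraries lay between 4.95 and 4.99. Chance sets apart about 1 in 20 such sets.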

How the results depend on the processing

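Counts of called genes moved most, so the background shares in the report depend on the setting. In bulk MSC, replicate numbers did not pair the samples (correlations of same-numbered deviations -0.39, -0.13, -0.20 and 0.02). With a replicate block, 134 genes were higher and 240 lower, against 324 and 447, and Socs3 (adjusted p = 0.0536) and Pim1 (0.0696) no longer passed. Without a filter on low counts Socs2 passed (0.0216). Leaving out each library gave 134 to 304 higher and 230 to 426 lower.

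In HSPC, 100 genes were higher and 65 lower over all cells. DESeq2 gave 467 and 161, cells thinned to 3000 UMIs gave 694 and 396, and leaving out cluster 2 gave 381 and 227. Leaving out each mouse gave 100 to 1135 higher and 84 to 797 lower. Within phases DESeq2 called 405, 52 and 213 genes higher in G1, S and G2M, against 123, 26 and 132. Leaving out each mouse gave 13 to 741 higher and 11 to 411 lower in G1, 11 to 311 and 2 to 208 in S, and 10 to 424 and 7 to 249 in G2M. In cluster 3 the ranges were 47 to 326 and 18 to 207, and clustering without the 6 genes gave 26 lower.

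For S against G1, no replicate block gave 782 higher and 696 lower, and thinning gave 1442 and 913, against 2491 and 1868. For G2M against G1 these were 1051 and 1237, then 1817 and 1768, against 3000 and 2825. Socs2 changed sign when 1 mouse was left out: it ran from -0.0081 (without WT mouse 1) to 0.86 over all cells, from -1.52 to 0.41 (without PyMT mouse 1) in S, and from -0.87 to 0.10 (without WT mouse 2) in G2M. Socs3, Socs1 and Pim1 over all HSPC passed under every alternative that kept all 4 mice. With 1 mouse left out, their log2 differences ran from 2.45 to 2.90, 1.10 to 1.34 and 0.64 to 0.85. The cause of these shifts was not tested.

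In stroma, thinning to 1500 UMIs moved the log2 ratio of Socs1 in cluster 2 to 1.01, of Socs2 in clusters 1, 2 and 5 to 0.011, 1.18 and 0.87, of Socs3 in clusters 0, 1 and 5 to -0.071, 1.02 and 0.20, and of Pim1 in cluster 3 to -0.58. The mean of per-cell CPM gave -0.090 and 1.20 for Socs3 in clusters 0 and 3 and 0.59 for Pim1 in cluster 0.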
